A study of Mus musculus with 6 samples.

Results

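The genes described here are those of red blood cell formation and haem synthesis, read from Affymetrix arrays of the olfactory epithelium, the sensory lining of the nose. The 3 Harlequin mice were males of genotype Hq/Y, for which B6CBACAw-J/A-Pdcd8-Hq/J is named as the strain, and the 3 controls were male +/Y littermates, with B6CBACa as the strain. All were 6 months old and killed with CO2, and each mouse gave 1 array. The members are 35 listed gene symbols together with the probe sets that name only haemoglobin genes. Of the 35 symbols, 32 had a probe set on the array, and Epb41, Ahsp and Trim58 were not in the probe table used here. With 15 haemoglobin probe sets the members held 70 probe sets, which made 42 of the 18197 genes or globin probe sets on the array. A feature entered the comparison where its signal, averaged on the log scale over all 6 arrays, exceeded 61.1, and 34 of the 42 did so: 29 listed genes and 5 globin features. No member entered through the Harlequin arrays alone, since the log-scale control average of each of the 34 was also above that signal. The members were selected on earlier results of the same comparison, in which Alas2, Slc4a1, Car1 and Ermap had higher signal in Harlequin. Their differences between the genotypes are therefore given as a description and support nothing.

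Harlequin is an X-linked mutation of Aifm1, which encodes apoptosis-inducing factor, a protein of the mitochondrial intermembrane space needed for normal respiratory chain complex I. The stated purpose of the series was to relate gene expression to oxidative stress and neurodegeneration in this mutant. The 3 mutants had Aifm1 signals of 335.4, 221.1 and 211.2 and the 3 littermates 1239.9, 1255.6 and 1128.2, in the direction of the labels. The strain names differ between the groups, so strain background and genotype cannot be told apart. The labels name no pooling of animals and do not say whether blood was flushed from the vessels before dissection. Markers of olfactory neurons and supporting cells defined the tissue on every array: Omp lay between 15891.8 and 18821.7 and Cyp2g1 between 16585.7 and 18072.4.

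Haem is built in a path that starts in the mitochondrion, continues in the cytosol and ends in the mitochondrion, where ferrochelatase inserts iron into protoporphyrin. Every cell makes some haem, with Alas1 as first enzyme, whereas developing red cells use Alas2 and make haem in bulk for haemoglobin. The transcription factors GATA1, TAL1, KLF1 and NF-E2 switch on globin, haem and red cell membrane genes together, and mature mouse red cells carry no nucleus. In a bulk tissue sample a lower signal from fewer cells of a type and one from less RNA per cell cannot be told apart.

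The 250 bases before the transcription start of 8 members are shown because GATA-type sites are common in erythroid promoters, with examples of both red cell genes and general haem enzymes that hold such a match and that do not. The sequences are from RefSeq on GRCm38.p6, written 5′ to 3′ on the gene's strand, with matches on either strand to the words AGATAA and also TGATAA and also AGATAG and also TGATAG in capitals. Alas2 lies at chrX:150547167-150547416 on the plus strand, Ermap at chr4:119189996-119190245, Kel at chr6:41704326-41704575 and Hemgn at chr4:46404184-46404433 on the minus strand, Hba-a1 at chr11:32283422-32283671 on the plus strand and Urod, a housekeeping haem enzyme, at chr4:116994414-116994663 on the minus strand. Cpox, another haem enzyme of all cells, lies at chr16:58669958-58670207 on the plus strand and Gata1 at chrX:7967911-7968160 on the minus strand.
Alas2: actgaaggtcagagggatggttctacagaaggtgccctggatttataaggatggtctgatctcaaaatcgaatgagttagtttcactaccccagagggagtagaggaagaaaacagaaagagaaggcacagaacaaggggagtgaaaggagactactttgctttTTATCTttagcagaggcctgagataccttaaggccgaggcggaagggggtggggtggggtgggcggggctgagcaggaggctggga
Ermap: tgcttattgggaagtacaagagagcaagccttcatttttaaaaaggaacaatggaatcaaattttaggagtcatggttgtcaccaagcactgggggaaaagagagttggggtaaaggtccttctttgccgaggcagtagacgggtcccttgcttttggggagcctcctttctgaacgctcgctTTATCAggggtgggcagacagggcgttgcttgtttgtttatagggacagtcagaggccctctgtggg
Kel: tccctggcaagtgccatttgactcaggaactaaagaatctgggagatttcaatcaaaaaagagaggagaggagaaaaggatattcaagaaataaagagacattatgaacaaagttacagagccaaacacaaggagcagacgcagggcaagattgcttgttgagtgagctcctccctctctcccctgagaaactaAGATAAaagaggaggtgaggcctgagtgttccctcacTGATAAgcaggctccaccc
Hemgn: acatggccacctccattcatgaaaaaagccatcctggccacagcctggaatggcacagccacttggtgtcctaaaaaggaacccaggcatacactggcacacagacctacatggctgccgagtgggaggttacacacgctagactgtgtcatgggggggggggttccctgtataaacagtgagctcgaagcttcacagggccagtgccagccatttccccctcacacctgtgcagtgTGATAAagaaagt
Hba-a1: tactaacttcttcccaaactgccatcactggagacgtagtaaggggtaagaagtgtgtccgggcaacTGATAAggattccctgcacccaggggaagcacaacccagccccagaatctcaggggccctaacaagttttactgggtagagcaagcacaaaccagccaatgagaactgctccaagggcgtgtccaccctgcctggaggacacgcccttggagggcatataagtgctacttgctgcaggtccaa
Urod: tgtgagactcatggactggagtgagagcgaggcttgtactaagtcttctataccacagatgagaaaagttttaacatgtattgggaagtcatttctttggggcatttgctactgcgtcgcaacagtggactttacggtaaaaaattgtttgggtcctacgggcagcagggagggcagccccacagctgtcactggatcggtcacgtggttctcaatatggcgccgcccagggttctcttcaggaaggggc
Cpox: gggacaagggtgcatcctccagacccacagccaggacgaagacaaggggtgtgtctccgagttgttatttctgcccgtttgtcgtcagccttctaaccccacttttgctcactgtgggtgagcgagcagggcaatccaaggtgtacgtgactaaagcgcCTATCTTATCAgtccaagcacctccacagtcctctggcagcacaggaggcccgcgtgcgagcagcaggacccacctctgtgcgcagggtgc
Gata1: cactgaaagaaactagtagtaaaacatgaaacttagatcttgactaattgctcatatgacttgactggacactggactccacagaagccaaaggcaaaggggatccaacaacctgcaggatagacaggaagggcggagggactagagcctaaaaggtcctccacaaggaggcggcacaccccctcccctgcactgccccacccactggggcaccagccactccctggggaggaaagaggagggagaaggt

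Alas2, Ermap, Hemgn and Hba-a1 each held 1 such match, Kel and Cpox held 2 each and Urod and Gata1 held 0. Among windows not shown, Uros held 2 at 1 start site and 0 at the other, and Sptb, Tspo2 and Hbb-bt held 0. RefSeq promoter entries were found for 34 member symbols, 27 of them listed genes, with 41 start sites in all. These symbols are not the same set as the 34 members tested. They include Epb41 and Trim58, which were not in the probe table, and Hbb-bh2, which no haemoglobin probe set named. No entry was found for Slc4a1, Car1, Fech, Slc25a37, Ank1, Gypc, Nfe2 and Ahsp. Of the 41 windows, 22 (53.7%) held a GATA-type match, against 26.5% of the 32851 promoter windows of the same length. A KLF-type word, CCNCNCCC on either strand, was in 51.2% of the member windows and 45.9% of all windows, and an NF-E2-type word, TGANTCA, in 7.3% and 6.7%. The 3 sets share no word, and matches of a set may overlap in a window. A match is only a description of the letters in these windows.

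Across the 34 members tested, 32 had a higher mean log2 signal in Harlequin and 2 a lower one, while all 13223 features divided into 6613 higher and 6610 lower. The median log2 difference of the members was 0.38 and that of all features 0.00. In limma with Benjamini-Hochberg adjustment over all features, 0 of the 34 members passed an adjusted p under 0.05, where 0.0303% of all features did. The lowest adjusted p of a member was 0.347, at an alpha globin probe set, and that of Alas2 was 0.702. At an unadjusted p under 0.05 there were 13 members higher in Harlequin and 0 lower, against 2.01% and 2.59% of all features. The 3 Harlequin values lay above all 3 control values for 12 members (35.3%), against 5.04% of all features, and below them for 0 members, against 5.34%. Without control replicate 3, 22 members (64.7%) did not overlap, against 22.1% of all features in either direction, and with any other array left out 12 to 15 members did not, against 17.7% to 22.1%. Since earlier results of this contrast shaped the list, nothing is read from these shares.

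**Figure D1:**
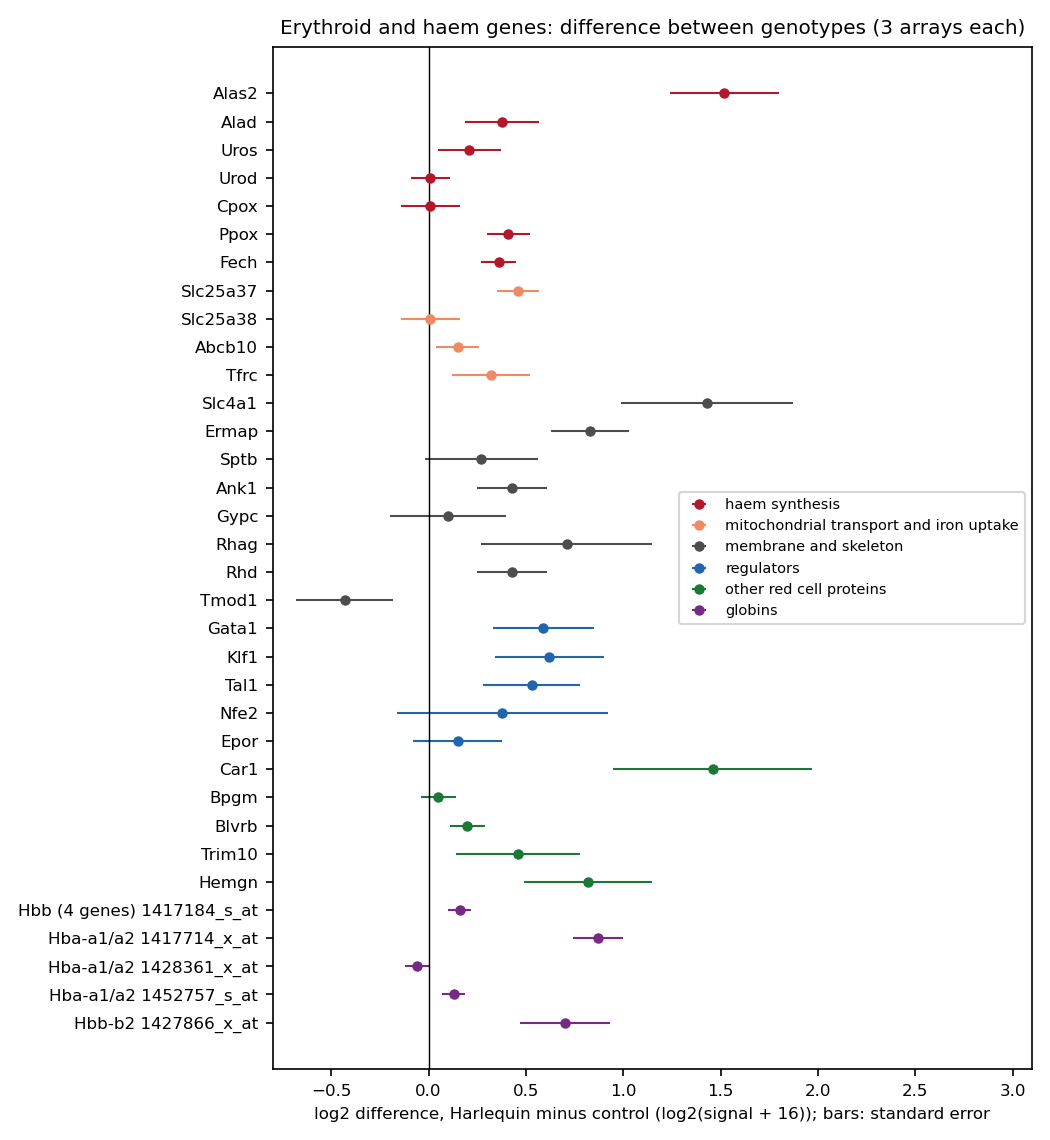
Difference between Harlequin and control for each of the 34 members tested, on the log2(signal + 16) scale, coloured by role; points are differences of means of 3 arrays each and bars are standard errors. Alas2, Car1 and Slc4a1 stand furthest to the right, at 1.52, 1.46 and 1.43, and Tmod1, at -0.43, stands furthest to the left.

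Among the 7 haem synthesis genes the difference was widest for Alas2, the erythroid first step. Alas2, which makes 5-aminolaevulinic acid in red cell precursors, gave 1930.1, 1822.8 and 1242.7 in Harlequin and 601.2, 359.3 and 812.7 in controls. The genotypes did not overlap, with means of 1665 ± 370 and 591 ± 227 (SD, n = 3) and a log2 difference of 1.52 (SE 0.28). Its housekeeping counterpart Alas1, not a member, lay at 7313.5 to 8746.5 in Harlequin and 6383.3 to 7591.8 in controls, overlapping, with a difference of 0.16 (SE 0.10).

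Among the enzymes after the first step, Ppox and Fech did not overlap between the genotypes. Ppox, which oxidises protoporphyrinogen, gave 824.5, 898.7 and 933.4 in Harlequin and 679.4, 607.9 and 707.9 in controls (log2 difference 0.41, SE 0.11). Fech, the ferrochelatase that inserts iron, gave 2805.9, 2868 and 2624.5 in Harlequin and 2231, 1982.8 and 2244.1 in controls (0.36, SE 0.09). The other probe sets of Fech did not all point the same way: 1 differed by 0.19, another by -0.14 and a dim one by -0.23. The other 2 probe sets of Ppox differed by 0.11 and 0.38 and overlapped.

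The remaining enzymes overlapped between the genotypes. Alad, which joins 5-aminolaevulinic acid into porphobilinogen, ran from 4306.9 to 6757.6 in Harlequin and from 3384.1 to 4915.3 in controls (0.38, SE 0.19), and its dimmer probe set differed by -0.01. Uros, the uroporphyrinogen III synthase, ran from 697.4 to 918.9 and from 566.3 to 765.2 (0.21, SE 0.16). Urod and Cpox, the decarboxylase and the oxidase that follow, were level between the groups: Urod at 4841 ± 206 and 4825 ± 531 (0.01, SE 0.10) and Cpox at 854 ± 71.8 and 856 ± 145 (0.01, SE 0.15; SD, n = 3). Without control replicate 3 the difference was 0.20 for Alad and 0.07 for Uros; without Harlequin replicate 3 it was 0.24 for Alad, and without Harlequin replicate 2 it was 0.11 for Uros. The median over the 7 enzymes was 0.36, and 0.29 without Alas2, a setting added after the data were seen. It was 0.20 without control replicate 3 and 0.19 with each gene as the mean of its probe sets.

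The 4 proteins that feed iron and substrates to haem synthesis had log2 differences of 0.01 to 0.46, with a median of 0.24. Slc25a37, mitoferrin 1, carries iron into the mitochondrion and gave 1816.4, 1835.7 and 1587 in Harlequin against 1262.5, 1151.4 and 1383.7 in controls. Its groups did not overlap (log2 difference 0.46, SE 0.11). The transferrin receptor Tfrc, the entry of iron at the cell surface, ran from 2771.2 to 3784.5 in Harlequin and from 1910 to 3386.9 in controls (0.32, SE 0.20), with 0.33 and 0.52 at the dimmer probe sets. The mitoferrin partner Abcb10 differed by 0.15 (SE 0.11) and the mitochondrial glycine carrier Slc25a38 by 0.01 (SE 0.15), both with overlap. The Tfrc difference was 0.12 without control replicate 1, 0.53 without control replicate 3 and 0.20 without Harlequin replicate 3, and that of Abcb10 was 0.08 without control replicate 2. The median of these genes was 0.13 without control replicate 1 and 0.37 without control replicate 3.

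**Figure D2:**
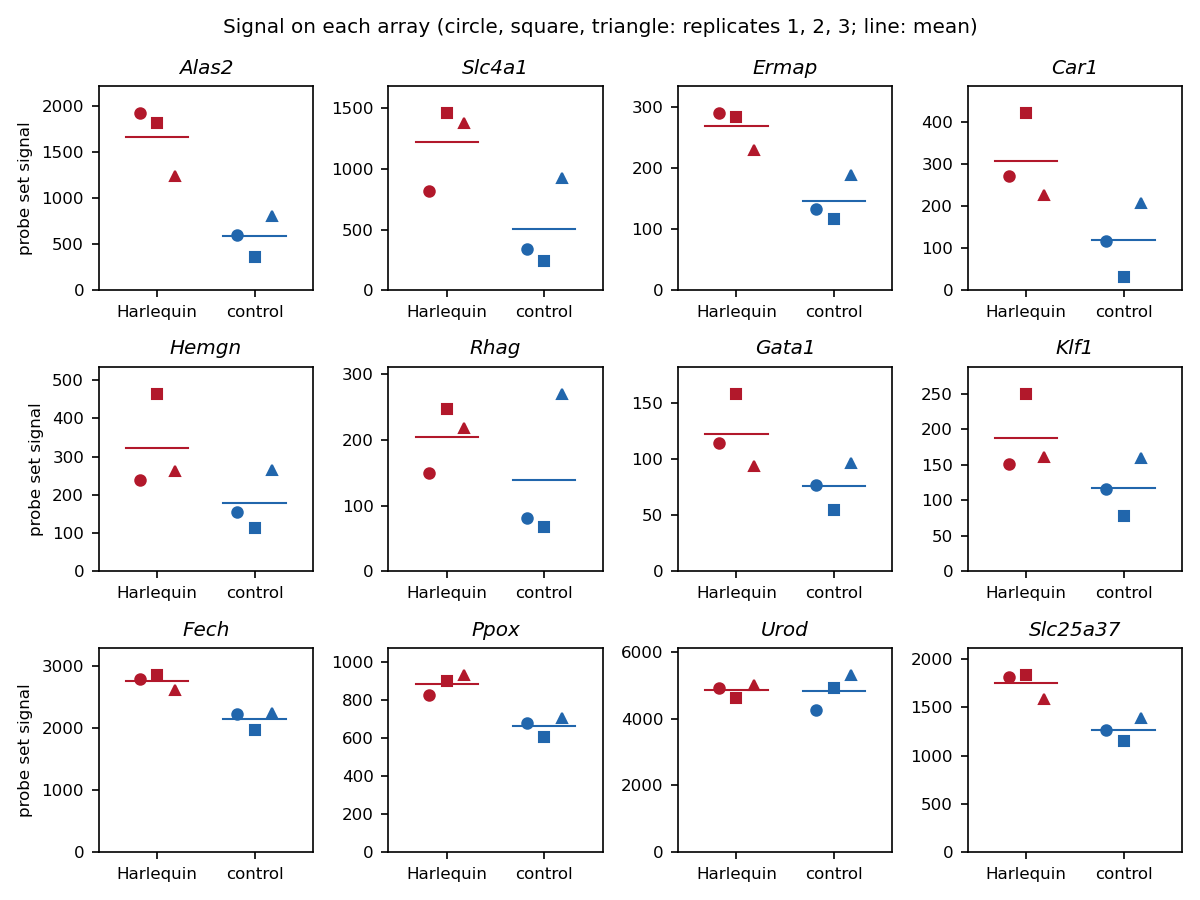
Signal of 12 members on each array, on linear axes that start at 0, for Harlequin (red) and control (blue), with the mean of each group as a line. Alas2 and Ermap separate the genotypes, Rhag is highest on control replicate 3, at 270.1, and Urod lies at the same level in both groups.

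Red cell membrane genes were spread from the anion exchanger, high on the Harlequin arrays, to tropomodulin, high on a control array. Slc4a1, the band 3 anion exchanger, gave 817.2, 1464.7 and 1379.7 in Harlequin and 340.7, 246.2 and 925.9 in controls at its brightest probe set (log2 difference 1.43, SE 0.44). Control replicate 3 thus lay above Harlequin replicate 1. At its second probe set, with 550 to 941.3 against 148.4 to 456, the groups did not overlap and the difference was 1.45.

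Ermap, an erythroid membrane protein of the immunoglobulin superfamily, gave 290.4, 283.2 and 229.9 against 132.4, 117 and 188.1 (0.83, SE 0.20). Rhd, of the Rh blood group complex, gave 164.2, 194.4 and 174 against 111.3, 120.7 and 153 (0.43, SE 0.18). Ank1, the ankyrin that ties band 3 to the spectrin skeleton, gave 266.2, 361 and 330.4 against 193.5, 258.7 and 246.7 (0.43, SE 0.18). None of these 3 genes overlapped between the genotypes at its brightest probe set. The 3 dimmer probe sets of Ank1 differed by -0.26, -0.30 and 0.14.

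Rhag, the partner of the Rh proteins, gave 149.4, 246.4 and 217.2 in Harlequin and 80.7, 67.2 and 270.1 in controls (0.71, SE 0.44). Its highest value was on a control array, and the difference was 0.38 without control replicate 2 and 1.27 without control replicate 3. Beta spectrin, Sptb, differed by 0.27 (SE 0.29) and glycophorin C, Gypc, by 0.10 (SE 0.30), both with overlap. Tmod1, which caps actin filaments and is also made outside red cells, went the other way, at 366.2, 546.2 and 577.7 against 555.2, 547.8 and 946.5 (-0.43, SE 0.25), and overlapped. With 1 array left out, Sptb ran from -0.05 (control replicate 2) to 0.49 (control replicate 3) and Gypc from -0.16 (control replicate 2) to 0.31 (Harlequin replicate 1). Tmod1 was at -0.17 without control replicate 3 and -0.23 without Harlequin replicate 1.

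The other 3 membrane genes with a probe set, Kel, Epb42 and Tspo2, had signals too low to enter the comparison, between 11.5 and 123.2 on single arrays. Kel, a blood group antigen of the endopeptidase family, gave 68.6, 123.2 and 107.6 in Harlequin and 11.5, 27.5 and 69.9 in controls. Control replicate 3 exceeded Harlequin replicate 1, and the log2 difference was 1.27. Epb42, protein 4.2 of the band 3 complex, differed by 0.68 and Tspo2, a translocator protein of erythroid cells, by 0.09, with overlap in each case.

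The 5 erythroid regulators all had a higher mean in Harlequin, and all overlapped. Gata1 gave 114.2, 158.5 and 94.4 in Harlequin and 77.1, 54.5 and 96.6 in controls (log2 difference 0.59, SE 0.26). Klf1, the factor that activates adult beta globin, gave 151.8, 250.3 and 161.8 against 116.1, 78.2 and 159.7 (0.62, SE 0.28). Tal1, a partner of GATA1, gave 160.3, 206.8 and 153 against 103.5, 86.1 and 165 (0.53, SE 0.25). For all 3 factors Harlequin replicate 2 was the highest array, control replicate 2 the lowest, and control replicate 3 reached the lower Harlequin values. Without control replicate 2 the differences of Klf1 and Tal1 were 0.39 and 0.35, and that of Klf1 was 0.41 without Harlequin replicate 2.

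Nfe2, a subunit of NF-E2, rested on 1 array, with 224.5 on Harlequin replicate 2 against 60.9 and 49 on the other Harlequin arrays and 75.3, 31.7 and 108.6 in controls. Its log2 difference of 0.38 (SE 0.54) became -0.21 without Harlequin replicate 2, 0.00 without control replicate 2 and 0.74 without Harlequin replicate 3. The erythropoietin receptor Epor ran from 90.6 to 119 in Harlequin and from 66.8 to 110.5 in controls (0.15, SE 0.23), with -0.02 without control replicate 1, 0.05 without Harlequin replicate 2 and 0.29 without control replicate 3. The median over the 5 regulators was 0.53, and 0.35 without control replicate 2.

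Among the other red cell proteins the difference was widest for Car1. Car1, a carbonic anhydrase abundant in red cells, gave 271.1, 421.4 and 225.1 in Harlequin and 117.9, 32.2 and 207.2 in controls. The groups did not overlap, at a log2 difference of 1.46 (SE 0.51), and without control replicate 2 it was 0.85. Hemgn, a nuclear protein of haematopoietic cells, gave 239.2, 464.8 and 263 against 156.5, 112.3 and 265.6 (0.82, SE 0.33). Here control replicate 3 was above 2 Harlequin arrays, and the difference was 0.54 without Harlequin replicate 2.

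Trim10, an erythroid ubiquitin ligase family gene, differed by 0.46 (SE 0.32) with overlap, and by 0.17 without control replicate 2 and 0.24 without Harlequin replicate 2. Blvrb, a flavin and biliverdin reductase, gave 7086.2, 6962 and 7398.7 against 5475, 6814 and 6423.8 (0.20, SE 0.09) without overlap, and 0.11 without control replicate 1. Bpgm, which makes the haemoglobin ligand 2,3-bisphosphoglycerate, was at 2344 ± 115 and 2272 ± 162 (0.05, SE 0.09; SD, n = 3), with 0.12 and 0.19 at 2 further probe sets. The median of the 5 genes was 0.46, and 0.24 without Harlequin replicate 2 and 0.27 without control replicate 2.

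The globin features tested had log2 differences of -0.06 to 0.87. Of 15 globin probe sets 9 were below the signal threshold, among them all 7 for the embryonic globins Hbb-y, Hbb-bh1 and Hba-x, at 1.1 to 52.8. Of the 6 above it, 4 name several adult genes of near-identical sequence, whose signals cannot be assigned to 1 gene. The probe set for the adult beta globins gave 20790.8, 21160.8 and 20268.6 in Harlequin and 19104, 17987.9 and 18533.2 in controls, without overlap and 0.16 apart on the log2 scale (SE 0.06).

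Alpha globin, shared by Hba-a1 and Hba-a2, had 3 such probe sets. At the first the arrays gave 21269.3, 22460.5 and 20663.7 against 20072.9, 18864.2 and 19933.5 (0.13, SE 0.06), without overlap. At the second they gave 20620.6, 21973.8 and 21120.5 against 22443.9, 22967.4 and 21165.7 (-0.06, SE 0.06), with overlap and the opposite sign. These 2 probe sets and that of beta globin were at the 99.9th percentile of mean signal of all probe sets. Whether differences are compressed at such signals was not tested, so nothing is read from their size or sign.

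The third alpha globin probe set was dimmer and showed a wider gap. Its signals were 6722.5, 6144.8 and 4868.9 in Harlequin and 3191.4, 2849 and 3568.2 in controls, without overlap (log2 difference 0.87, SE 0.13). The brighter probe set of Hbb-b2, a minor adult beta globin, gave 657.5, 481.4 and 699.9 against 361.9, 271.4 and 503.2 (0.70, SE 0.23), and the other 81.6, 85 and 74.4 against 134.5, 67.4 and 179.2 (-0.49). The other 2 dim probe sets, for Hba-a2 and Hba-a1, differed by -0.05 and -0.75. The median of the 5 globin features was 0.16, and -0.04 when the dim globin genes were let in. The value of 0.16 is that of the bright beta globin probe set, whose size is not read. Several of the 5 features name the same alpha globin genes.

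**Figure D3:**
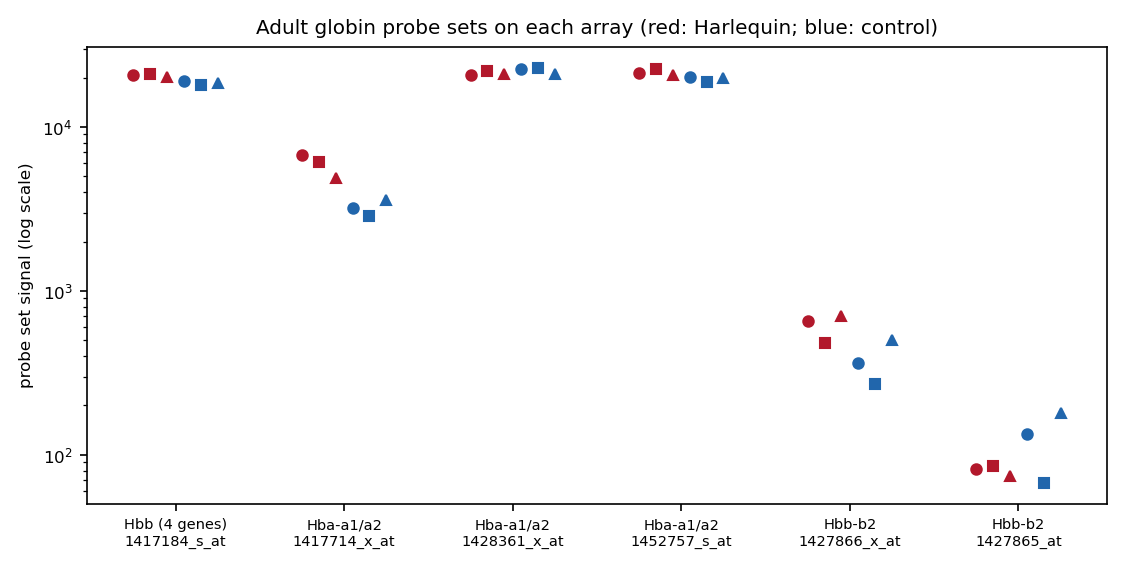
Signal of the 6 adult globin probe sets above the threshold on each array, on a log axis; red marks Harlequin, blue control, and circle, square and triangle replicates 1, 2 and 3. The 3 brightest probe sets lie between 17987.9 and 22967.4 in both genotypes, while the dimmest probe set of Hba-a1 and Hba-a2 shown separates the genotypes.

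Array by array, control replicate 2 was low for every role. Each role was scored as the mean log2 deviation of its members from their average over the 6 arrays. Control replicate 2 had the lowest score of the 6 arrays for haem synthesis (-0.32), membrane (-0.61), regulator (-0.60), other red cell (-0.73) and globin genes (-0.31), and shared it with control replicate 1 for transport and iron genes (-0.19 each). Of the 34 members, 22 had their lowest signal on control replicate 2, a share of 64.7% against 17.8% of all features.

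Harlequin replicate 2 was the highest array for 4 of the 6 roles: regulators (0.71, against 0.04 and -0.06 on the other Harlequin arrays), other red cell proteins (0.58), membrane genes (0.45) and haem synthesis (0.29, against 0.18 and 0.15). Transport and iron genes (0.18) and globins (0.23) were highest on Harlequin replicate 1. Of the 34 members, 18 (52.9%) had their highest signal on Harlequin replicate 2, against 15.4% of all features. Control replicate 3 scored 0.20 for regulators and 0.29 for membrane genes, above Harlequin replicates 1 and 3 in both. For haem synthesis and globins the scores of the genotypes did not overlap. They were 0.15 to 0.29 against -0.32 to -0.15 for haem synthesis, and 0.15 to 0.23 against -0.31 to -0.07 for globins. The list was shaped by earlier results of this contrast, and the globin score includes the brightest globin probe sets, so nothing is read from these separations.

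**Figure D4:**
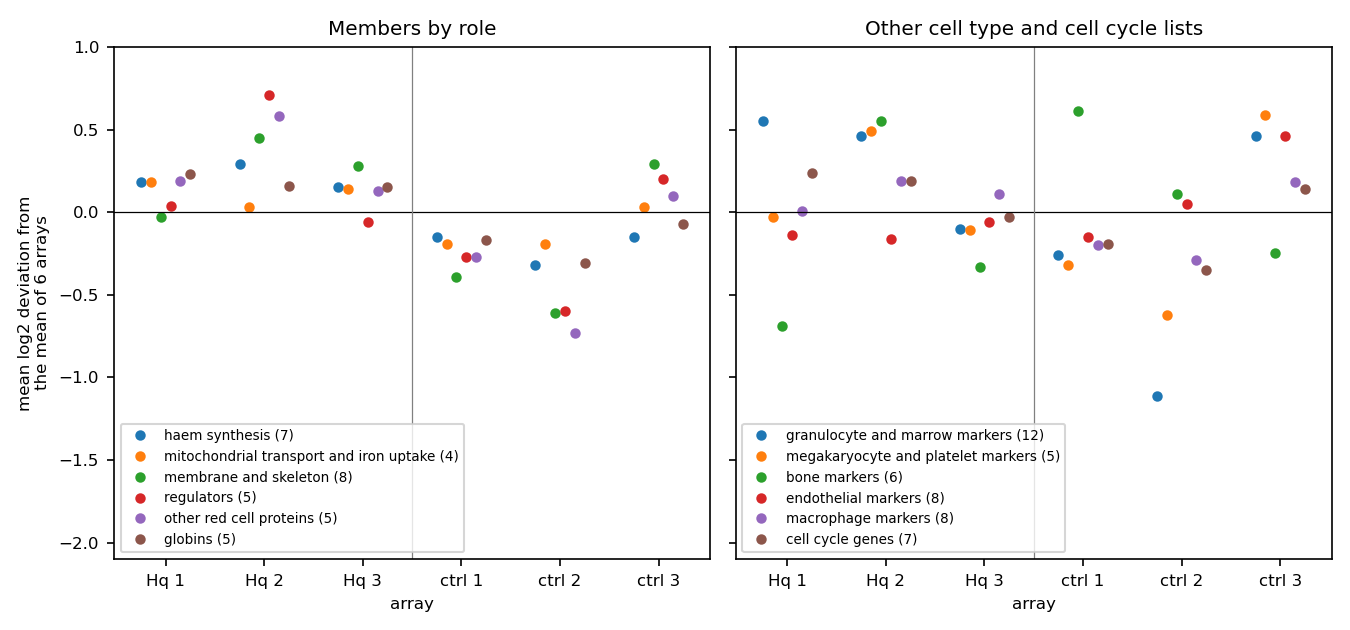
Mean log2 deviation from the average of 6 arrays, for the members by role (left) and for other cell type and cell cycle lists (right), with the number of genes tested in brackets; Hq marks Harlequin arrays and ctrl control arrays. Control replicate 2 is lowest for most roles and for granulocyte markers, at -1.11.

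Most of the markers listed for other marrow-derived cells were lowest on control replicate 2, as were most red cell genes. Of 14 granulocyte and marrow markers 12 were tested, and 10 of them were lowest on control replicate 2. Their scores were 0.55, 0.46 and -0.10 in Harlequin and -0.26, -1.11 and 0.46 in controls, and the summed signal was 42589 to 62623 against 22854 to 55368. The neutrophil granule gene Ngp gave 960.9 on control replicate 2 and 2992.5 to 5799.4 elsewhere. Lcn2 gave 8455.7 on control replicate 2, above Harlequin replicate 2 (6512.7) and control replicate 1 (5301.7). The summed signal includes Lcn2, Ltf and Chil3, and which cells of the tissue gave their signal was not tested. The median log2 difference of this list was 0.52, and 1 gene, Chil3, passed over all features (limma adjusted p = 0.0316). Chil3 was not low on control replicate 2: control replicates 1 to 3 gave 293.8, 581.9 and 404.8. Its call was lost without the intensity trend of the variance (limma adjusted p = 0.202) and with a replicate block (0.0604). Save for control replicate 2, it was also lost with any 1 array left out (0.0888 to 0.144). Megakaryocyte and platelet markers, 5 of 9 tested, ran from -0.62 on control replicate 2 to 0.59 on control replicate 3, with a sum of 2365 to 4134 against 1456 to 4439 and a median of 0.23. None of the tested markers in either list was at 0. Their part in the red cell differences was not tested.

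By score, bone and endothelial markers were not lowest on control replicate 2, whereas macrophage markers (-0.29) and cell cycle genes (-0.35) were. Gene by gene, 2 of the 8 macrophage markers and 4 of the 7 cell cycle genes tested had their lowest signal there. The 6 bone markers tested scored highest on control replicate 1 (0.61) and Harlequin replicate 2 (0.55), with sums of 3180 to 8866 in Harlequin and 4659 to 10379 in controls and a median of -0.23. The 8 endothelial markers had a median of -0.25, with 7 lower and 1 higher in Harlequin and sums of 1658 to 1835 against 1837 to 2587. Their score was 0.46 on control replicate 3 and between -0.16 and 0.05 on the other arrays. The part of vessel content in the red cell differences was not tested. Macrophage markers had a median of 0.12, with 5 higher and 3 lower in Harlequin. The widest difference among them was that of Vcam1, at 333.2, 550.9 and 513.3 against 148.6, 189 and 548.5, with overlap. Cell cycle genes, 7 of 8 tested and all higher, had a median of 0.30. As a measure of RNA quality, Gapdh signal at the 3' end over that at the 5' end ran from 0.729 to 0.79 in mutants and from 0.74 to 0.846 in littermates. The same ratio from the control probe sets for Tfrc, a member gene, ran from 3.093 to 4.962 and from 3.537 to 4.525. The lowest Tfrc ratio was on Harlequin replicate 2 and the highest on Harlequin replicate 1, with 4.525 on control replicate 2. The Gapdh ratio was 0.787 on Harlequin replicate 2 and 0.74 on control replicate 2. The part of either ratio in the differences was not tested.

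Haem and iron genes outside the member list were near the middle of all genes. Of 16 listed, 12 were tested, 7 higher and 5 lower, with a median log2 difference of 0.07. Flvcr1, the haem exporter, gave 948.7, 892.5 and 1104.5 in Harlequin and 1215.8, 1318.5 and 1120.1 in controls, without overlap (-0.31, SE 0.12). The iron exporter Slc40a1 differed by 0.47 (SE 0.30) and the iron importer Slc11a2 by 0.22 (SE 0.18), both with overlap. Among 12 tested genes of 18 listed that red cells share with other tissues or that regulate them, 9 were higher and 3 lower with a median of 0.11. Gata2, a GATA factor of early blood progenitors, differed by -0.30 (SE 0.16) with overlap, and Ldb1, a cofactor of GATA1 and TAL1, by 0.22.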

How the data were processed

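The authors deposited intensities on a linear scale for 45101 probe sets on 6 arrays, between 0.1 and 31786.1. The mean of each array without the lowest and highest 2% was 499.3 to 499.8, so the arrays had been brought to about the same mean; the software that made these intensities is not given in the sources used here. Per the labels' protocols, 3 µg of total RNA went into each labelling with biotin.

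The members and lists were chosen with earlier results of these data known. Values were analysed as log2(signal + 16), so that changes of low signals are understated, leaving out 64 control probe sets. Gene names came from the platform annotation; of 18194 gene identifiers, 18032 were in the RefSeq table (GRCm38.p6) and 0 symbols changed. Each gene was represented by its brightest probe set, probe sets naming several globin genes entered on their own, and 13223 features above the 40th percentile of mean signal were tested.

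The genotypes were fitted with limma 3.58.1 under R 4.3.3, with an intensity trend, two-sided, with Benjamini-Hochberg adjustment. The labels call the arrays biological replicates. Differences are log2 Harlequin minus control with the moderated standard error. The procedure was tested on simulated data. Summaries used Python 3.11.15 with pandas 2.3.3 and figures matplotlib 3.10.9. The rule for named genes was to describe singly every globin probe set, every haem enzyme and each other member above the filter, and up to 3 genes of a context list with the largest differences; Alas1, Kel, Epb42 and Tspo2 were named after their values were seen, as were the promoters and motifs chosen. Alternatives were other pseudocounts (1 and 64), filters, scalings, probe set rules, variance models, array weights, a replicate block, another adjusted p threshold and each array left out.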

Additional observations from a re-analysis of the deposited data

How the results depend on the processing

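No member passed the adjusted threshold under any setting run. The count of all features called was 4, and 0 without the intensity trend and 0 with the replicate block. Replicate numbers are shared by the groups, and the deviations of same-numbered arrays from their group means had r = -0.24, -0.03 and 0.06. Arrays with different numbers gave r from -0.25 to 0.3. With 3 arrays per group these values cannot show whether the mice were paired, and the labels do not say. Leaving out 1 array at a time gave 0 to 3 features called, and 12 to 22 members without overlap (35.3% to 64.7%) against 12, where 17.7% to 22.1% of all features did not overlap; 22 was reached without control replicate 3. The haem synthesis median of 0.36 was 0.19 as a mean over probe sets, 0.21 without _s_at and _x_at probe sets, and 0.20 to 0.39 with 1 array left out. The globin median of 0.16 was -0.04 without the signal filter and -0.49 without _s_at and _x_at probe sets, where 1 feature was left; with every globin probe set on its own, a setting chosen after seeing the data, it was 0.15. The transport median of 0.24 was 0.13 to 0.37 with 1 array left out, and the regulator median of 0.53 was 0.35 to 0.75. Of 29 members with a difference of at least 0.1 in size, 16 moved by over 1.5 times or changed sign with some array left out. Single members gave 595 values under 18 settings: 590 stayed within 1 replicate SD of the member and 5 moved beyond it. Part of the 590 was fixed in advance, since other filters, variance models and the replicate block leave a member's difference unchanged. The SD was also wide for some members, at 0.88 for Nfe2. Of the 34 members, 24 kept their sign throughout. With 3 arrays per group, their number limits the precision.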
